A study of Rattus norvegicus with 32 samples.

Results

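Genes of cytochrome P450 families 2, 3, 4, 7 and 8 were followed in RNA sequencing of liver sinusoidal endothelial cells (LSECs) from rat liver. A gene belonged to the set when its symbol began with Cyp, then 2, 3, 4, 7 or 8, then a subfamily letter, and 57 of the 32623 genes in the count tables did so. They carried 53 symbols from 24 subfamilies. No read was counted for 3 of them in any library (Cyp2b15, Cyp2c7 and Cyp2g1), 46 passed the low-count filter of at least 1 comparison, and 34 passed it in every comparison. The 11 that were never tested reached at most 35 counts in a library, or 0.867 CPM (counts scaled to the library total).

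LSECs are the fenestrated endothelium that lines the sinusoids of the liver. In the CCl4 experiment, 22 libraries came from male Wistar Han rats. They were 6 healthy (untreated) libraries, 5 after 2 weeks of inhaled carbon tetrachloride (acute), 5 after 6 weeks (fibrosis) and 6 after 12 to 14 weeks (cirrhosis). The labels of the last group give no duration of their own, and it was taken from the description of the series. A further 10 libraries came from an experiment with thioacetamide (TAA). Of these, 5 are labelled control (T1 to T5) and 5 are labelled TAA control (T10 and T12 to T15). The labels name Wistar Han for these as well, while the methods of the study give male Sprague-Dawley rats, TAA or saline, so it is not settled which of the 2 groups received TAA. Differences between them are given as labelled, with no reading as disease. Isolation was by perfusion, digestion and an iodixanol gradient, some days after the last dose of toxicant, with no sort on a surface marker. The drinking water of the CCl4 model held phenobarbital, a known inducer of Cyp2b, Cyp2c6 and Cyp3a genes. The sources do not say whether healthy rats drank it too, so its share in a difference from healthy LSECs cannot be told apart from that of CCl4. The methods of the study give a body weight for the CCl4 rats but no age, and neither for the healthy rats. Groups with longer exposure were kept longer, so age and body weight cannot be told apart from stage.

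Microsomal P450 enzymes insert an oxygen atom into lipophilic substrates, with electrons passed on by P450 reductase. Families 2 and 3 oxidize drugs, toxicants, steroids and arachidonic acid, family 4 hydroxylates the end of fatty acid chains, and families 7 and 8 hydroxylate sterols on the way to bile acids. Most members are made mainly by hepatocytes under the control of hepatocyte transcription factors, and CCl4 itself is turned into a reactive radical by Cyp2e1 in the hepatocytes around the central vein. A P450 transcript in an LSEC preparation can therefore come from endothelium or from other liver cells carried along.

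Promoter sequences are shown for members whose levels are described in most detail. They are Cyp2e1, the sex-dependent pair Cyp2c11 and Cyp2c12, and Cyp4b1 and Cyp4f5, whose levels took a course of their own. Each is a window of 300 bases, from 250 before to 50 after the start of the RefSeq gene, in build GRCr8 and written 5′ to 3′ on the gene's strand. Capitals mark TATAAA, the core of the TATA box. The places are chr1:205269717-205270016 (plus strand) for Cyp2e1, chr1:246174966-246175265 (plus) for Cyp2c11, chr1:248676985-248677284 (minus) for Cyp2c12, chr5:134393067-134393366 (minus) for Cyp4b1 and chr7:12194387-12194686 (plus) for Cyp4f5.
Cyp2e1: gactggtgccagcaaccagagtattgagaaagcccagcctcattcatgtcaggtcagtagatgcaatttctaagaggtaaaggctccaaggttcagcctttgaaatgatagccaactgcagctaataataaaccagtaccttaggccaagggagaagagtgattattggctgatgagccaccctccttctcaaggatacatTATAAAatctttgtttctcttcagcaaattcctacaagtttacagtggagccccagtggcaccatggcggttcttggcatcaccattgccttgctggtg
Cyp2c11: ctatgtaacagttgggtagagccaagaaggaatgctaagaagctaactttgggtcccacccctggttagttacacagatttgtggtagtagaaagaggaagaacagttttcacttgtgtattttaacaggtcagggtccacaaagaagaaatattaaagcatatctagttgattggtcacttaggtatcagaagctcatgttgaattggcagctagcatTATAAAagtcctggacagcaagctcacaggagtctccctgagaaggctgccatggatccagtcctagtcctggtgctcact
Cyp2c12: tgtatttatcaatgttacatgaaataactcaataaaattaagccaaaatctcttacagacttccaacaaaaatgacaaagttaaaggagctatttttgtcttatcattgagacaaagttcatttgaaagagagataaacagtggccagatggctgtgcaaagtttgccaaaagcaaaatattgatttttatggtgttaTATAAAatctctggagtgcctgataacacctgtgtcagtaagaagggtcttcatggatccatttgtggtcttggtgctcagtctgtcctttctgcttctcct
Cyp4b1: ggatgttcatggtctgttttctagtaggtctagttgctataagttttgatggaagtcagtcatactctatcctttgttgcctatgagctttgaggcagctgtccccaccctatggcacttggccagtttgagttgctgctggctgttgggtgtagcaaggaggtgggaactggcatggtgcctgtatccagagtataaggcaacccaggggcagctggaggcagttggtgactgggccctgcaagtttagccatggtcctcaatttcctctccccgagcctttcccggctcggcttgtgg
Cyp4f5: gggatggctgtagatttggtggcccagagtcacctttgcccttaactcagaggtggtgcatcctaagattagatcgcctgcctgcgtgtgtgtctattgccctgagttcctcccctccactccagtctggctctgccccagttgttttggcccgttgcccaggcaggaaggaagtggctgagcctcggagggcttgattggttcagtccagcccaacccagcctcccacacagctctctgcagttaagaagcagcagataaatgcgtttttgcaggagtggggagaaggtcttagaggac
Windows were at hand for 42 of the 53 symbols. Searched on both strands, TATAAA stood in 11 of the 42 (26.2%), against 14.2% of all 33469 windows of the same length. TTNNGCAA, a core of sites for C/EBP factors, stood in 13 of 42 windows (31.0%) and in 10.6% of all. GTTAAT, part of the HNF1 site, stood in 4 (9.52%) against 7.45% of all, and CAAAGTCCA, an HNF4 site, in 1 (2.38%, Cyp3a2) against 0.391%. These matches describe letters in the windows and say nothing of a factor bound there.

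Libraries held between 25646531 and 46464289 expected counts. CPM are given per library and not per length, so levels are not compared between genes. The 14 LSEC markers found (of 15 sought, among them Stab2, Mrc1 and Fcgr2b) were above 0 in every group, and their summed level was 18380 to 35166 CPM in healthy, 4332 to 5201 in acute, 3078 to 4121 in fibrosis and 18106 to 23172 in cirrhosis. Of these markers, 12 were called lower in acute and 13 in fibrosis than in healthy, against 37.9% and 34.9% of all genes. The sum of 19 hepatocyte secretory markers (Alb, Hp, Tf and others) was above 0 in all libraries as well. It was 21250, 31750, 4686, 37400, 1622 and 30514 CPM in healthy replicates 1 to 6, so that replicates 3 and 5 stood far below the other 4. It ran from 184 to 1161 CPM in acute, 1788 to 7319 in fibrosis and 3979 to 18466 in cirrhosis. In bulk RNA, fewer cells of a type and less RNA per cell cannot be told apart.

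**Figure D1:**
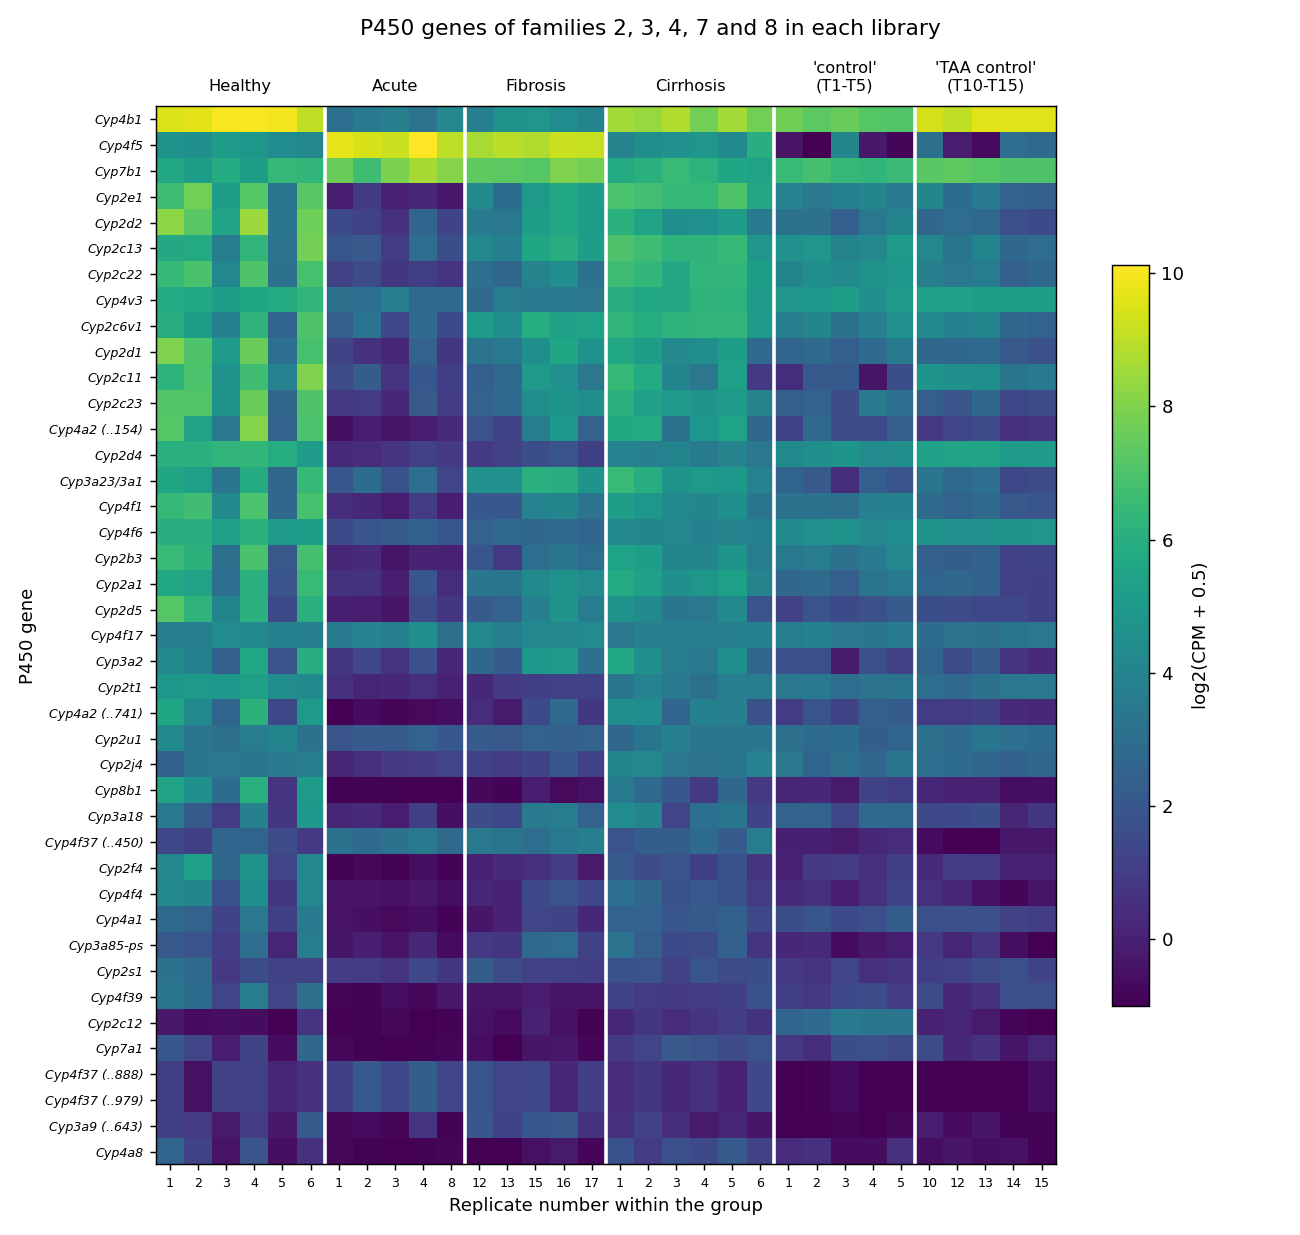
Level of the 41 P450 genes with a mean of at least 2 CPM in a group, as log2(CPM + 0.5), in each of the 32 libraries (columns, by group; rows sorted by level). Most genes are lowest in the acute libraries, many are low in healthy replicates 3 and 5, and Cyp4f5 and Cyp7b1 are highest in acute and fibrosis.

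Acute injury came with low P450 transcripts. A gene was called when its adjusted p from limma-voom was under 0.05 over all genes tested and its fold-change was above 1.5. Of 41 P450 genes tested in acute against healthy LSECs, 32 were called lower and 5 higher, 90.2% in all, against 73.4% of all 14317 genes tested. Among the 5 higher are 2 Cyp4f37 entries with the same value in every library. They are 1 measurement, but this and later counts take them separately. The 32 lower are to be read against 37.9% of all genes called lower, and the 5 higher against 35.5%. The median log2 fold-change was -4.48 over these 41 genes and -0.09 over all genes. For 25 of them every acute library was below every healthy one (30.8% of all genes), and for 3 every acute library was above (29.2%), so that the groups did not overlap for 28 members and for 60% of all genes. The summed hepatocyte markers moved with this, since all 19 were called lower (median -4.91), and their part in the P450 values was not tested.

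After 6 weeks, 22 of 43 genes were lower and 3 higher than in healthy LSECs. That is 58.1% called, fewer than the 70.2% of all genes, with a median log2 fold-change of -2.10 against -0.03 over all genes. Among all genes, 34.9% were called lower and 35.3% higher. The groups did not overlap for 14 members, 11 lower and 3 higher, against 58.7% of all genes (29.1% lower, 29.6% higher). At cirrhosis, 8 of 46 were lower and 4 higher, 26.1% against 51.8% of all genes (24.7% lower, 27.1% higher), and the median was -0.17 against 0.07. Without overlap were 4 lower and 1 higher, against 17% and 10.1% of all genes (27.2% either way). These 3 comparisons share the healthy libraries, so they are not independent of each other. Scaling by library size alone moved the median of all genes to 0.32 in acute, 0.37 in fibrosis and 0.42 in cirrhosis. It left the acute split at 5 higher and 32 lower, and gave 7 higher and 17 lower in fibrosis and 5 higher and 8 lower in cirrhosis. The cirrhosis count changed with the test and with the healthy libraries kept. With all libraries, edgeR called 18 of 46 (7564 of all 14789 genes) and DESeq2 called 19 (7914 of all 14789). Without healthy replicate 3 alone, 12 were called, as in the main fit (7418 of all 14994 genes). Without replicate 5, 19 of 46 were called (3 higher, 16 lower), against 8411 of all 15000 genes. Leaving out both replicates 3 and 5 was an alternative chosen after seeing the data. It gave 28 of 47 called (5 higher, 23 lower), against 8504 of all 15193 genes. Of 37 members with at least 2 CPM in healthy, 25 had their lowest 2 healthy values in replicates 3 and 5. Leaving these out lowers such differences from healthy by itself.

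Between stages, without the healthy libraries, 24 of 38 genes were higher in fibrosis than in acute LSECs and 0 lower (limma-voom; 0 lower also by edgeR, by DESeq2 and at an unadjusted p under 0.05). That is 63.2% against 11% of all genes (10.2% higher, 0.732% lower). The median log2 fold-change was 2.73 against 0.00, and for 22 genes the groups did not overlap (6.48% of all genes higher without overlap). All 19 hepatocyte secretory markers rose too (median 3.26), and their part was not tested. A single fit over the 4 CCl4 groups called 6 in all, and 7 of the 24 calls (Cyp2c11, Cyp3a2, Cyp3a85-ps, Cyp4a1, both Cyp4a2 entries and Cyp4b1) were lost when 1 or another library was left out. From fibrosis to cirrhosis, 27 of 46 rose and 5 fell, 69.6% against 63.8% of all genes (34.3% higher, 29.5% lower), and the median was 1.34 against 0.04. Of these 32 calls, 7 were lost when 1 or another library was left out (Cyp2a1, Cyp2c13, Cyp2c23, Cyp2c6v1, Cyp4f1, Cyp4f18 and Cyp4f4). Without overlap were 18 higher and 2 lower, against 30.8% and 32.5% of all genes (63.3% either way). From acute to cirrhosis, 36 of 45 rose and 5 fell, 91.1% against 69.3% (37.5% higher, 31.8% lower), and 34 rose and 2 fell without overlap, against 33.4% and 32.5% (65.9% either way). The log2 fold-changes in cirrhosis against acute LSECs were 7.28 ± 0.56 (SE) for Cyp2e1, 7.12 ± 1.37 and 5.99 ± 1.41 for the Cyp4a2 entries, and 5.88 ± 0.54 for Cyp7a1.

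**Figure D2:**
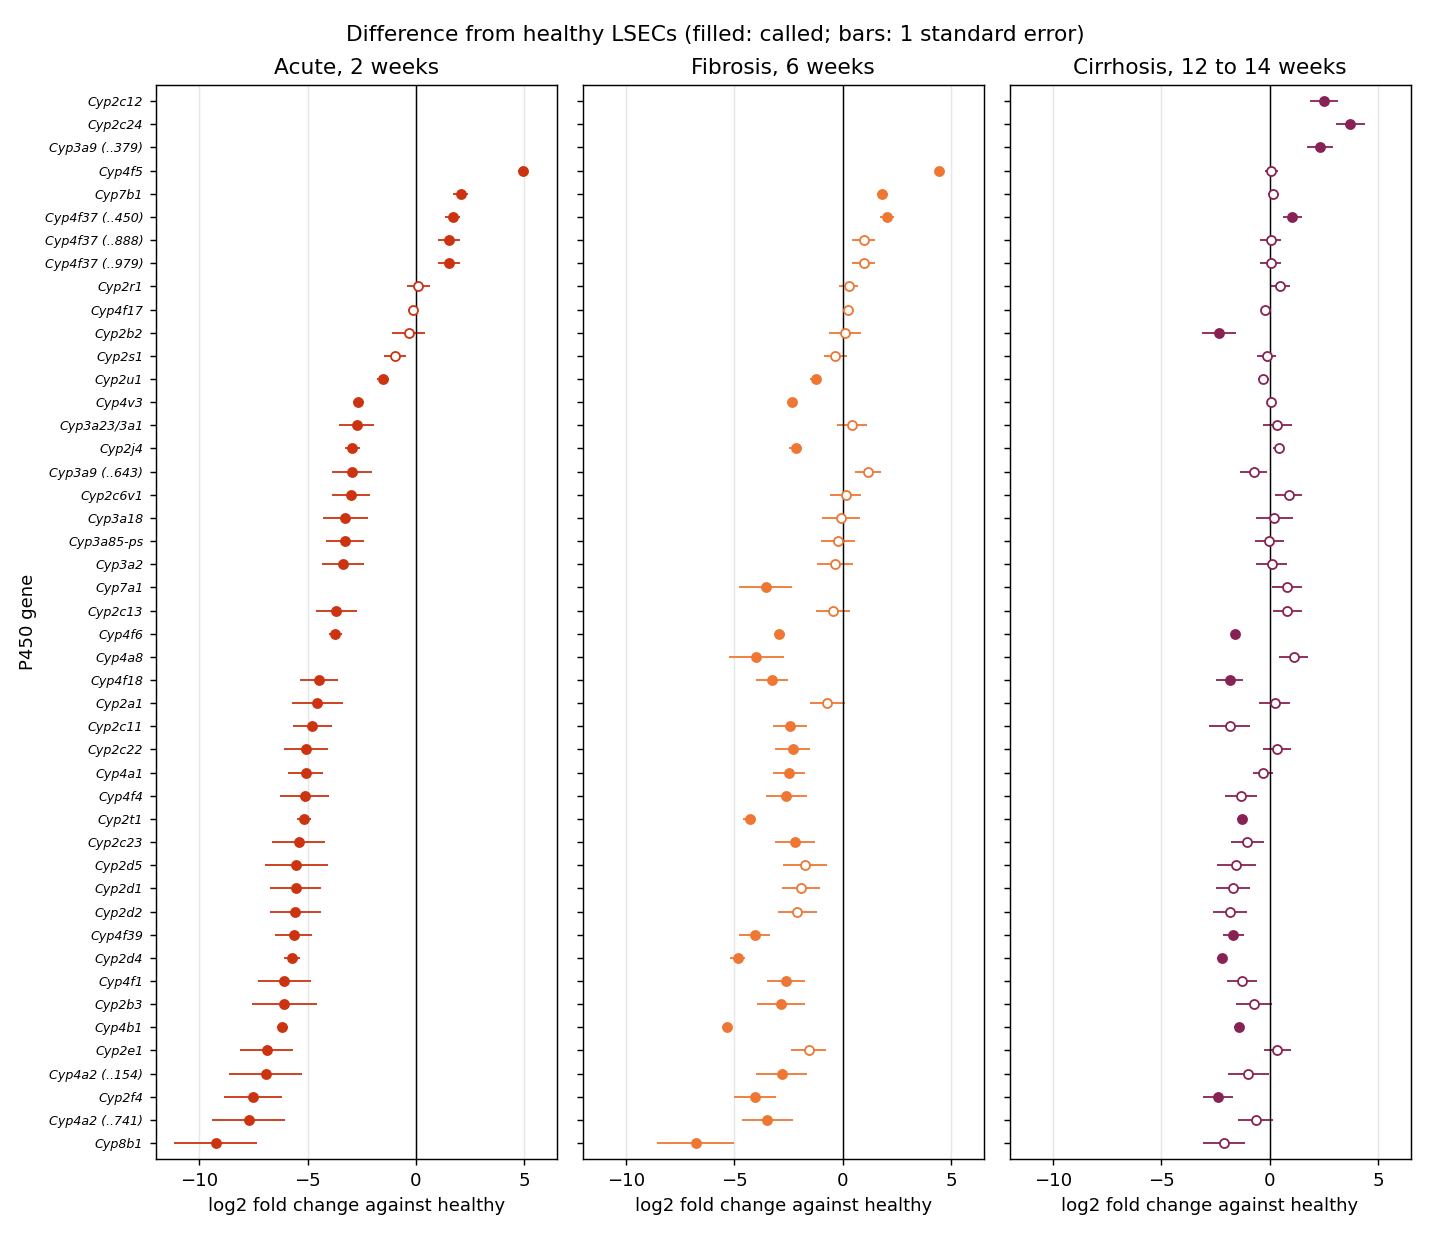
Log2 fold-change against healthy LSECs (x axis, bars ± 1 SE) of each P450 gene in acute, fibrosis and cirrhosis (3 panels), filled where called and open where not, with no point where the gene was not tested. In acute, 32 filled points lie left of 0 and 5 right of it, and in cirrhosis 8 lie left and 4 right.

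Cyp4b1, which oxidizes fatty acids and small aromatic toxicants and is best known from lung, fell in acute and fibrosis and was not low in the healthy libraries with few hepatocyte transcripts. It stood at 749, 813, 1045, 1040, 972 and 531 CPM in healthy replicates 1 to 6, and replicates 3 and 5 were among the higher ones. In acute replicates 1, 2, 3, 4 and 8 it stood at 7.76, 11.7, 13.9, 8.89 and 18.1 CPM. In fibrosis replicates 12, 13, 15, 16 and 17 it stood at 13.4, 25.3, 27.4, 20.6 and 15.7 CPM. All acute and fibrosis libraries were far below the lowest healthy one. The cirrhosis libraries returned part of the way, to 379, 336, 440, 218, 382 and 218 CPM, still below every healthy value. Cyp4b1 was 71.6-fold lower in acute (log2 fold-change -6.16 ± 0.25, limma adjusted p = 2.26e-09), 40.5-fold lower in fibrosis (-5.34 ± 0.23, limma adjusted p = 4.71e-09) and 2.62-fold lower in cirrhosis (-1.39 ± 0.23, limma adjusted p = 0.000409). These calls held in all alternatives run. Cirrhosis was 4.01 ± 0.24 above fibrosis on the log2 scale (limma adjusted p = 2.02e-08). The rise from acute to fibrosis (0.87 ± 0.26, limma adjusted p = 0.0392) was lost without any of acute replicates 1 to 4 or fibrosis replicates 13, 15 or 16, with adjusted p of 0.0515 to 0.0981. LSEC markers were low in the same 10 libraries, and their part in the fall of Cyp4b1 was not tested.

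Cyp4f5, of the subfamily that hydroxylates leukotrienes and long fatty acids, went the other way. It stood at 24.9, 23.6, 33.6, 29.2, 20.5 and 17.7 CPM in healthy, then at 832, 691, 598, 1113 and 512 CPM in acute and 406, 494, 450, 596 and 567 CPM in fibrosis. No acute or fibrosis library came near a healthy one. In cirrhosis it was back at 15.2, 22, 23.9, 28.6 and 19.3 CPM in replicates 1 to 5 and 61.7 CPM in replicate 6, which alone was above the healthy range. Cyp4f5 was 30.5-fold higher in acute (log2 fold-change 4.93 ± 0.22, limma adjusted p = 4.2e-09) and 21.5-fold higher in fibrosis (4.43 ± 0.18, limma adjusted p = 3.78e-09). For cirrhosis the difference was 0.08 (95% interval -0.50 to 0.65, limma adjusted p = 0.832). It was 19.6-fold lower in cirrhosis than in fibrosis (limma adjusted p = 6.47e-08). As a group, the acute libraries had the lowest hepatocyte markers and the highest Cyp4f5. The median was 1684 CPM of Cyp4f5 per 1000 CPM of these markers, against 0.98 in healthy. The median marker sum itself fell from 25882 CPM in healthy to 430 in acute, which raises the ratio. Within acute, replicate 4 was highest for both (1161 CPM of markers, 1113 of Cyp4f5), and within fibrosis replicate 16 was (7319 and 596 CPM).

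Cyp7b1, which hydroxylates oxysterols in the alternative route to bile acids and also acts on steroids in many tissues, rose with Cyp4f5 but less. It stood at 50.2, 35.8, 57, 37.2, 83.3 and 80.2 CPM in healthy, and replicate 5 was the highest. In acute it stood at 196, 105, 242, 389 and 273 CPM, and in fibrosis at 166, 160, 144, 247 and 220 CPM. Every one of these 10 was above all healthy libraries. In cirrhosis the values of 57.1, 66.6, 92.5, 73.5, 46.4 and 41.3 CPM overlapped with healthy. Cyp7b1 was 4.15-fold higher in acute (log2 fold-change 2.05 ± 0.33, limma adjusted p = 0.000112) and 3.53-fold higher in fibrosis (1.82 ± 0.25, limma adjusted p = 3.7e-05). In cirrhosis the difference was 0.17 (95% interval -0.33 to 0.66), and fibrosis against acute gave -0.19 (-0.78 to 0.41). Cyp4b1, Cyp4f5 and Cyp7b1 together took 31.7% of the reads of the set in healthy (median), 92.6% in acute, 67.8% in fibrosis and 31.1% in cirrhosis.

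**Figure D3:**
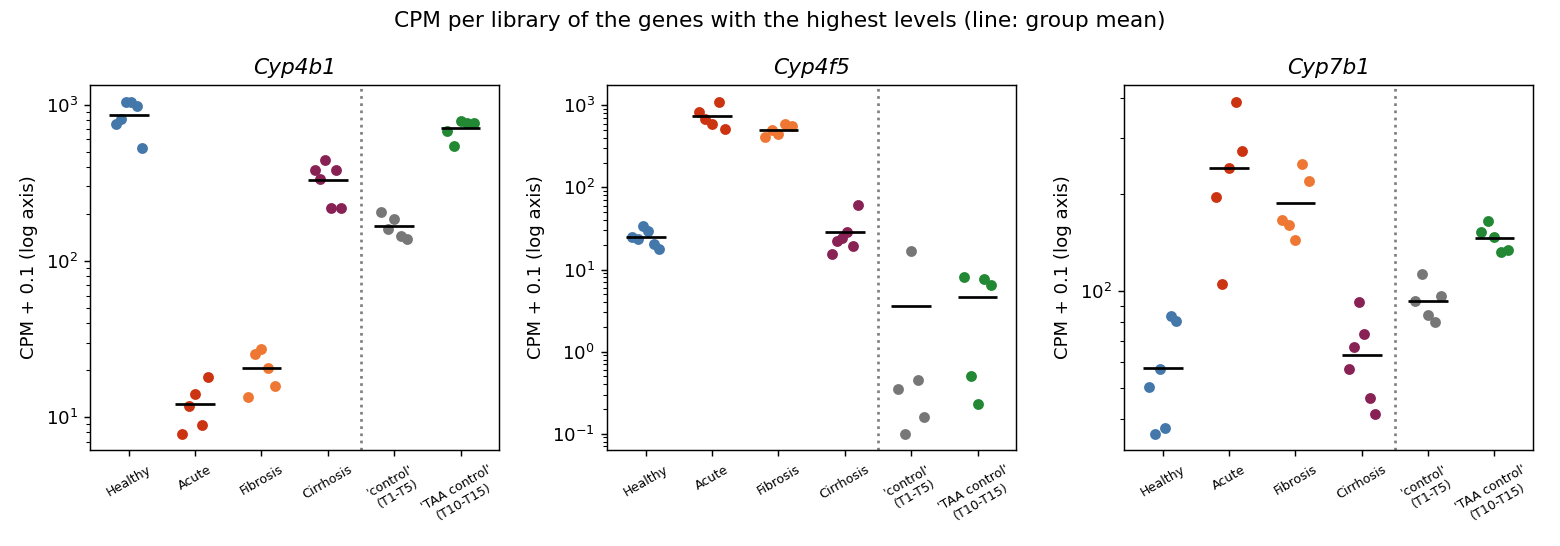
CPM + 0.1 of Cyp4b1, Cyp4f5 and Cyp7b1 in each library (points; log axis), with the mean of each group as a line and the TAA experiment to the right of the dotted line. Acute and fibrosis libraries lie below all healthy ones for Cyp4b1 and above all healthy ones for Cyp4f5 and Cyp7b1.

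Enzymes of the classic bile acid route were low where Cyp7b1 was high. Cyp8b1, the sterol hydroxylase that sets the share of cholic acid, stood at 44.1, 23.5, 7.12, 65.9, 1.11 and 33.3 CPM in healthy. The acute libraries held 3 counts of it in all, and the ratio of healthy to acute was 1816 (95% counting interval 621 to 8807, exact binomial, counting error only). In fibrosis it stood at 0.0861, 0.0312, 0.432, 0.115 and 0.204 CPM, all below healthy, with a log2 fold-change of -6.78 ± 1.79 (limma adjusted p = 0.00433). In cirrhosis it stood at 11.2, 6.51, 3.66, 1.34, 5.93 and 1.29 CPM. This was above all fibrosis libraries (log2 fold-change 4.73 ± 1.18, limma adjusted p = 0.00291) and overlapped with healthy replicates 3 and 5 (-2.12 ± 0.97, limma adjusted p = 0.0757). Without those 2 healthy libraries, its own lowest, the difference was -3.37 and called, a widening that the choice of libraries brings by itself. The ratio of cirrhosis to acute was 305 (104 to 1483).

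Cyp7a1, the rate-limiting enzyme of the classic route, had few reads in every group. Its levels were 3.71, 2.02, 0.409, 1.91, 0.143 and 6.3 CPM in healthy, 0.0817, 0.0272, 0, 0.023 and 0.0631 CPM in acute, 0.172, 0, 0.266, 0.316 and 0.0583 CPM in fibrosis and 1.38 to 3.78 CPM in cirrhosis. It was not tested in acute against healthy. In fibrosis it was lower (log2 fold-change -3.56 ± 1.22, limma adjusted p = 0.0188), a call lost without fibrosis replicate 13 (limma adjusted p = 0.0563), and healthy replicate 5 overlapped with fibrosis. From fibrosis to cirrhosis Cyp7a1 rose by 4.45 ± 0.69 on the log2 scale (limma adjusted p = 7.76e-05) with no overlap. Of 10 other bile acid genes found, all 10 were lower in acute (median -5.27), 8 in fibrosis (-2.92) and 4 in cirrhosis (-1.19). Among all genes tested, 37.9%, 34.9% and 24.7% were called lower at these stages. Cyp27a1, which starts the alternative route in mitochondria, gave -3.56, -2.69 and -1.83, all called. Akr1d1, the steroid 5-beta reductase, gave -7.11, -4.05 and, not called, 0.31.

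Cyp2e1, the enzyme that activates CCl4, fell in acute LSECs, and in fibrosis its call against healthy turned on which healthy libraries were used. It stood at 102, 216, 37.3, 147, 9.15 and 148 CPM in healthy, with replicates 3 and 5 the lowest, and at 0.436, 1.33, 0.5, 0.714 and 0.347 CPM in acute. No acute library reached the lowest healthy one, and Cyp2e1 was 119-fold lower (log2 fold-change -6.89 ± 1.23, limma adjusted p = 0.00025). In fibrosis, values of 18.6, 7.24, 33, 50.4 and 34.1 CPM overlapped with healthy (-1.57 ± 0.80, limma adjusted p = 0.0935) and were all above acute (5.37 ± 1.03, limma adjusted p = 0.00787). Without healthy replicates 3 and 5, its own lowest, the difference from healthy in fibrosis was -2.59 and called (limma adjusted p = 0.00054). Leaving out the lowest healthy values widens a fall by itself, so this is not separate support. In cirrhosis Cyp2e1 stood at 125, 110, 87.6, 87.5, 132 and 52.1 CPM, a difference from healthy of 0.36 (95% interval -0.90 to 1.62). Per 1000 CPM of hepatocyte markers, its median was 5.26 in healthy, 0.88 in acute, 6.88 in fibrosis and 11.2 CPM in cirrhosis. Relative to these markers, too, its median was lowest in acute.

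The Cyp2d enzymes, of which Cyp2d2 is a main drug-oxidizing form in rat liver, fell in acute LSECs. Cyp2d2 stood at 303, 154, 44.6, 354, 9.65 and 203 CPM in healthy, 1 to 5.64 in acute, 10.5 to 48.6 in fibrosis and 11.8 to 68.3 CPM in cirrhosis. It was called in acute (log2 fold-change -5.57 ± 1.17) but in neither fibrosis (-2.10 ± 0.90, limma adjusted p = 0.0515) nor cirrhosis (-1.83 ± 0.79, limma adjusted p = 0.0624), where healthy replicate 5 was below the range and replicate 3 within it. Without healthy replicates 3 and 5, its own lowest, the cirrhosis difference was -3.02 and called, a widening that the choice of libraries brings by itself. Cyp2d1 and Cyp2d5 gave -5.55 and -5.52 in acute and, not called, -1.67 and -1.54 in cirrhosis. Cyp2d4, the form best known from brain, had another course. Its healthy values of 65.2, 66.3, 77.1, 81.3, 59.1 and 33.5 CPM were not low in replicates 3 and 5. It stood at 0.735 to 1.82 CPM in acute, 1.35 to 3.21 in fibrosis and 10.2 to 15.8 in cirrhosis, below all healthy libraries at each stage, and was called each time (-5.72 ± 0.35, -4.86 ± 0.33 and -2.19 ± 0.23).

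Cyp3a genes, another group that phenobarbital is known to induce, were lower in acute LSECs, and their main member overlapped with the healthy range in fibrosis. Cyp3a23/3a1, a main steroid and drug hydroxylase, stood at 45.8, 38.4, 9.09, 57.6, 5.83 and 85.8 CPM in healthy and at 3.4, 7.05, 2.97, 7.69 and 1.99 CPM in acute, where healthy replicate 5 alone overlapped (log2 fold-change -2.73 ± 0.81, limma adjusted p = 0.00784). In fibrosis it was at 24, 24.1, 66, 61.3 and 26.4 CPM, all above acute (3.18 ± 0.54, limma adjusted p = 0.00559) and within the healthy range (0.42, 95% interval -0.90 to 1.74). Cirrhosis gave 0.36 (-0.91 to 1.63). Relative to hepatocyte markers its median was 2.05 CPM per 1000 CPM in healthy, 6.89 in acute, 12.5 in fibrosis and 3.82 in cirrhosis, so that here the acute value was above the healthy one. Cyp3a2, the male-predominant form, gave -3.38 ± 0.96 in acute and, not called, -0.35 in fibrosis and 0.09 in cirrhosis. Cyp3a18 gave -3.26, -0.08 and 0.21, and the pseudogene Cyp3a85-ps gave -3.29, -0.24 and -0.01, with the acute value alone called in both. Cyp3a9, an estradiol-inducible form, is listed under 2 identifiers. The entry ENSRNOG00000046643 was lower in acute (-2.94 ± 0.91), rose from acute to fibrosis (4.14 ± 0.78) and fell from fibrosis to cirrhosis (-1.82 ± 0.48), all called. The entry ENSRNOG00000001379 was higher in cirrhosis than in healthy (2.33 ± 0.61, limma adjusted p = 0.00597), with overlap.

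Cyp2c6v1, a phenobarbital-responsive form, gave -2.99 ± 0.88 in acute (called), 0.13 in fibrosis and 0.87 in cirrhosis, with 2.95, 9.48, 11.2 and 8.14 CPM per 1000 CPM of hepatocyte markers in healthy, acute, fibrosis and cirrhosis. Cyp2b2, a strongly induced form in treated liver, stood at only 0.179 to 2.81 CPM in healthy and 0.221 to 2.81 CPM in acute (-0.34, not called). In cirrhosis it was lower, at 0.0216 to 0.611 CPM (-2.35 ± 0.80, limma adjusted p = 0.0223), a call lost without cirrhosis replicate 4 (limma adjusted p = 0.0579). Cyp2b3, a constitutive form, fell in acute (-6.08) and fibrosis (-2.86) and gave -0.71 in cirrhosis, not called. The fibrosis call was lost without any 1 of 8 libraries (limma adjusted p of 0.0501 to 0.0792). Cyp2a1, a testosterone hydroxylase, fell by 4.55 in acute on the log2 scale, with -0.71 and 0.24, not called, later, and rose by 3.87 from acute to fibrosis. Cyp2f4, which activates aromatic toxicants in airways, stood at 2 to 40.8 CPM in healthy and 0.0272 to 0.161 CPM in acute (-7.51 ± 1.33), and was called lower in fibrosis (-4.04) and cirrhosis (-2.38) as well.

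Arachidonic acid epoxygenases fell in acute and fibrosis. Cyp2c23, the main epoxygenase of rat kidney, gave -5.41 in acute and -2.23 in fibrosis. The second call was lost without any of 8 libraries (limma adjusted p of 0.0566 to 0.105). In cirrhosis it gave -1.03, not called. Cyp2j4 stood at 5.05 to 12.4 CPM in healthy, 0.626 to 2.02 in acute, 1.4 to 3.56 in fibrosis and 8.86 to 17.5 in cirrhosis. Both middle groups lay below all healthy libraries (-2.94 ± 0.34 and -2.18 ± 0.30), while cirrhosis gave 0.42 (limma adjusted p = 0.155). Cyp2c22, which hydroxylates retinoids, gave -5.07, -2.32 and, not called, 0.34.

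The Cyp4a enzymes, PPAR-alpha targets that hydroxylate medium-chain fatty acids, fell and came back. Cyp4a1 stood at 1.68 to 11.3 CPM in healthy, 0.0316 to 0.245 in acute, 0.287 to 2.03 in fibrosis and 2.15 to 5.19 in cirrhosis (log2 fold-change -5.09 ± 0.82, -2.47 ± 0.72 and, not called, -0.32 ± 0.47). The 2 entries named Cyp4a2 (ENSRNOG00000009741 and ENSRNOG00000030154) gave -7.72 and -6.93 in acute, -3.47 and -2.83 in fibrosis and, not called, -0.65 and -0.98 in cirrhosis. From acute to fibrosis they rose by 4.29 and 4.15, calls lost without acute replicate 1 and, for the second, without replicates 2, 3 or 4. The fibrosis call of the second was lost without any of 8 libraries (limma adjusted p of 0.0592 to 0.101). Cyp4a8 was too low for a test in acute and gave -3.99 in fibrosis and 5.15 from fibrosis to cirrhosis, both called. RSEM divides reads that fit several genes, so entries of 1 symbol and the close relatives within Cyp2c, Cyp2d, Cyp3a, Cyp4a and Cyp4f, with Cyp4f5 among them, are less certain than other genes.

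Within Cyp4f, whose members hydroxylate leukotriene B4 and very long fatty acids, directions were mixed. Cyp4f1 gave -6.07, -2.62 and, not called, -1.28, and Cyp4f4 gave -5.14, -2.60 and, not called, -1.31. The fibrosis call of Cyp4f4 was lost without healthy replicate 6 or fibrosis replicate 12 or 13. Cyp4f6 (-3.72, -2.94, -1.57), Cyp4f18 (-4.48, -3.26, -1.84) and Cyp4f39 (-5.64, -4.06, -1.67) were called lower at all 3 stages. Cyp4f17 stood at 12.9 to 19.9 CPM in healthy, 8.18 to 21.3 in acute, 13 to 20.3 in fibrosis and 10.3 to 14.2 in cirrhosis, and was called against healthy at no stage. Cyp4f37, listed 3 times, rose in acute. The entry ENSRNOG00000048450 stood at 1.29 to 5.57 CPM in healthy, 6.6 to 10.8 in acute and 7.45 to 13 in fibrosis (1.69 ± 0.35 and 2.04 ± 0.34), both above all healthy libraries. Its cirrhosis call (1.05, limma adjusted p = 0.0459) was lost without any of 8 libraries (up to 0.117). The other 2 entries held the same value in every library, so that they count as 1 measurement (1.51 ± 0.50 in acute). They stood at 0.205 to 1.76 CPM in healthy and 0.689 to 3.24 in fibrosis, with overlap. Against healthy they were called in neither fibrosis nor cirrhosis.

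Several members of less settled function fell in acute and fibrosis as well. Cyp2t1 stood at 19.6 to 39.3 CPM in healthy, 0.505 to 0.98 in acute, 0.688 to 1.72 in fibrosis and 8.13 to 14.9 in cirrhosis (-5.18 ± 0.32, -4.30 ± 0.31 and -1.28 ± 0.21, all called and without overlap). Cyp4v3, an omega-hydroxylase whose human relative is mutated in a retinal dystrophy, fell by 2.66 and 2.33 on the log2 scale and was at 0.08 in cirrhosis, not called. Cyp2u1 gave -1.51, -1.26 and, not called, -0.29. Cyp2s1, at 1.31 to 8.67 CPM in healthy, and Cyp2r1, a vitamin D hydroxylase, were called against healthy at no stage.

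Within the healthy libraries the members differed in whether they were low in healthy replicates 3 and 5. Of 37 members with at least 2 CPM in healthy, 25 had these as their lowest 2 healthy libraries, against 10.4% of all genes tested in acute against healthy. Those genes passed the low-count filter but no cut at 2 CPM, so the 2 shares come from unlike sets. The other 12 were Cyp2d4, Cyp2j4, Cyp2s1, Cyp2t1, Cyp2u1, Cyp4b1, Cyp4f17, Cyp4f37, Cyp4f5, Cyp4f6, Cyp4v3 and Cyp7b1. The split was made after the values were seen and uses the healthy libraries, so it is a description only. From acute to fibrosis, all 21 of the 25 that were tested were called higher (median log2 fold-change 3.25). So were 2 of the 12 (median 0.55), against 10.2% of all genes. The single fit over the 4 CCl4 groups called 6 of 46 members here (746 of all 15578 genes). This comparison uses no healthy library, but the split was made with its values known, so it is not separate support. TATAAA stood in 7 of 18 promoter windows of the 25 and in 0 of 9 of the 12. Cyp2e1 and Cyp2c11 are among the 7, and Cyp4b1 and Cyp4f5 among the 9. TTNNGCAA stood in 5 of the 18 and 1 of the 9, GTTAAT in 3 and 0, and CAAAGTCCA in 1 and 0. These differences were not tested, and 9 windows are too few to say that a motif is lacking.

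**Figure D4:**
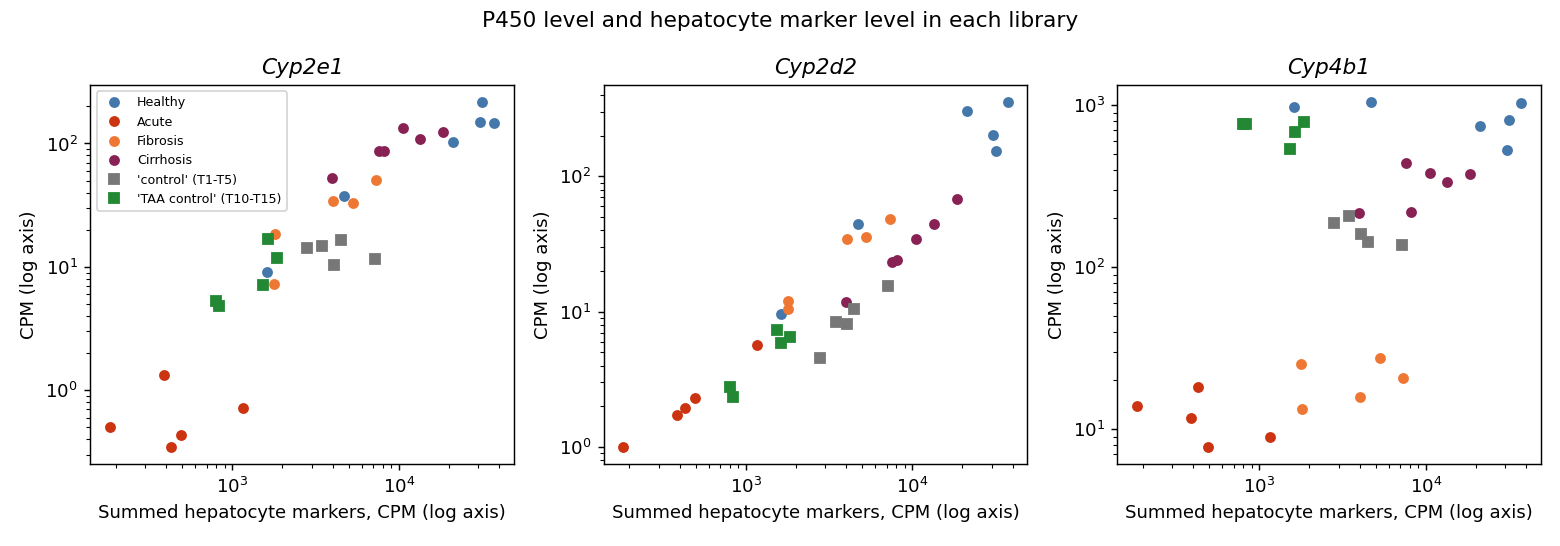
CPM of Cyp2e1, Cyp2d2 and Cyp4b1 (y axes, log) against the summed CPM of 19 hepatocyte markers (x axis, log) in each of the 32 libraries, coloured by group. Cyp2e1 and Cyp2d2 are lowest where the markers are, while Cyp4b1 is at 972 CPM in healthy replicate 5 with 1622 CPM of markers and at most 27.4 CPM in the acute and fibrosis libraries.

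Cyp2c11 and Cyp2c12 are steroid hydroxylases of the rat, the first predominant in males and the second in females under the pattern of growth hormone. Cyp2c11 stood at 71.5, 127, 24.9, 104, 14.6 and 247 CPM in healthy and at 2.42, 4.3, 1.14, 3.62 and 1.61 CPM in acute (-4.78 ± 0.89, limma adjusted p = 0.000345). In cirrhosis it was at 85.6, 56, 15.6, 10.2, 37.8 and 1.36 CPM, overlapping with healthy, with replicate 6 the lowest by far (-1.84 ± 0.94, limma adjusted p = 0.108). Without healthy replicates 3 and 5, its own lowest, the difference was -2.74 and called, a widening that the choice of libraries brings by itself. Cyp2c12 stood at 0 to 1.09 CPM in healthy and at 0.713, 1.17, 0.838, 1.08, 1.53 and 1.06 CPM in cirrhosis, an increase with overlap at healthy replicate 6 (2.50 ± 0.66, limma adjusted p = 0.00616). Cyp2c24 rose in cirrhosis from a very low level, at 0 to 0.201 CPM in healthy and 0.305 to 1.07 in cirrhosis with no overlap (3.73 ± 0.67), and was at 0 in all acute libraries, which makes cirrhosis at least 36.8-fold higher at a floor of 3 counts over the group. Cyp2c13, a male form close to these, gave -3.67 (called), -0.45 and 0.82.

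In the TAA experiment this pair had the largest fold-changes of the members called. In the libraries labelled control, Cyp2c11 stood at 0.881, 3.99, 3.88, 0.282 and 2.65 CPM and Cyp2c12 at 5.71, 6.94, 11.1, 9.75 and 9.66 CPM. In those labelled TAA control, Cyp2c11 stood at 26.3, 23.5, 22.7, 9.44 and 11.2 CPM and Cyp2c12 at 0.577, 0.601, 0.362, 0.079 and 0 CPM. The groups did not overlap for either gene, and the differences, TAA control minus control, were 3.42 ± 0.67 for Cyp2c11 (limma adjusted p = 0.00183) and -5.36 ± 0.74 for Cyp2c12 (limma adjusted p = 0.000235). The methods give male rats for both groups and the labels give no sex, so the sex of the rats behind these libraries is not settled here, nor was the labelling of the libraries tested. In the CCl4 experiment, with male rats, Cyp2c12 was higher in cirrhosis than in healthy (2.50), and Cyp2c11 was lower but not called. These are the directions of control against TAA control here, and a link between the experiments was not tested. Cyp2c24 was at 0 in all TAA control libraries and at least 25.5-fold higher in control at a floor of 3 counts.

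**Figure D5:**
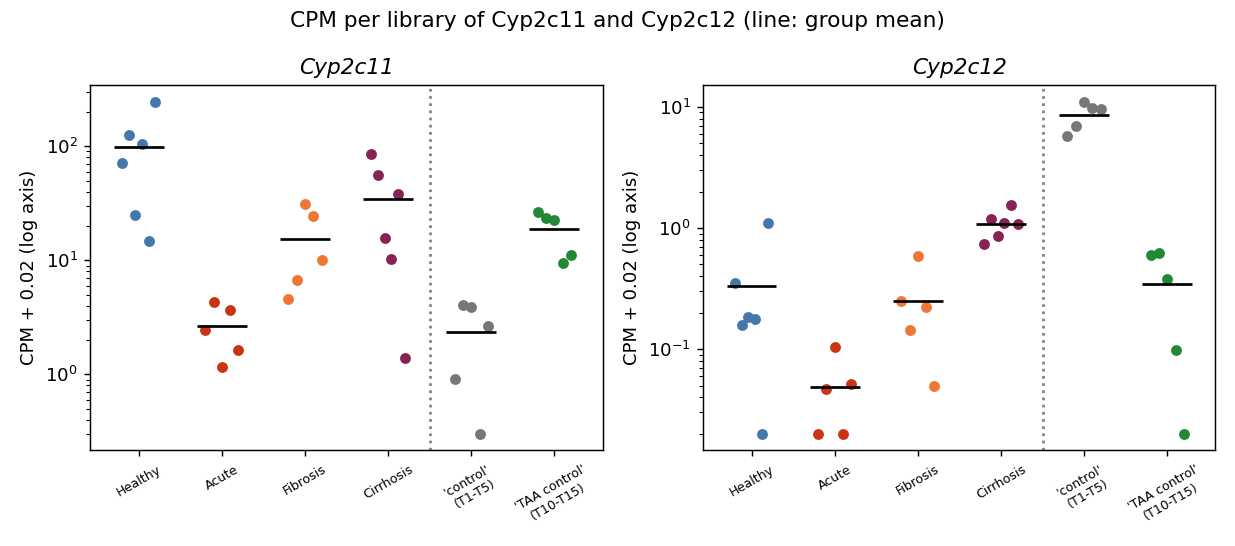
CPM + 0.02 of Cyp2c11 and Cyp2c12 in each library (points; log axis) with the group mean as a line. The libraries labelled control (T1 to T5) are below all those labelled TAA control for Cyp2c11 and above all of them for Cyp2c12.

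Of 38 members tested there, 5 were higher and 9 lower in TAA control, 36.8% against 27.6% of all genes (12.7% higher, 14.9% lower), with a median log2 fold-change of -0.39 against 0.03. Groups did not overlap for 10 members (35.4% of all genes), 5 higher (18%) and 5 lower (17.4%). Cyp4b1 was higher, at 207, 160, 186, 143 and 137 CPM in control and 682, 540, 786, 765 and 767 CPM in TAA control (2.09 ± 0.14, limma adjusted p = 5.59e-06). Cyp7b1 was higher as well, at 92.8, 113, 84.2, 79.7 and 96.1 CPM against 153, 165, 147, 132 and 134 CPM (0.65 ± 0.10). Cyp2d4 (0.83 ± 0.11) and Cyp2s1 (0.69 ± 0.24) completed the genes that were higher, the last call being lost without any of 5 libraries (limma adjusted p of 0.067 to 0.0803).

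Those lower in TAA control were Cyp4f37 (-2.73 for ENSRNOG00000048450), Cyp2b3 (-1.84), Cyp3a18 (-1.54), both Cyp4a2 entries (-1.30 and -1.14), Cyp2c22 (-1.28), Cyp2c13 (-1.12) and Cyp4f1 (-1.04), beside Cyp2c12. The call of the Cyp4a2 entry ENSRNOG00000030154 was lost without any of 5 libraries (limma adjusted p of 0.0565 to 0.087). Cyp4f5 was uneven within the groups, at 0.247, 0, 16.8, 0.352 and 0.0596 CPM in control and 8.08, 0.4, 0.132, 7.46 and 6.38 CPM in TAA control, and was not called (limma adjusted p = 0.274). Cyp2e1 (-0.67), Cyp3a2 (0.41), Cyp4a1 (-0.39), Cyp7a1 (-1.19) and Cyp8b1 (-1.23) were not called. Hepatocyte secretory markers summed to 2789 to 7149 CPM in control and 800 to 1854 in TAA control, with 15 of 19 called lower and 1 higher. Stellate markers summed to 2079 to 5178 and 343 to 536 CPM, with 7 of 9 lower. Of 5 cholangiocyte markers tested, 5 were lower, and of 4 lymphocyte markers, 3 were higher. The part of these cell types in the P450 differences was not tested.

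Genes that serve P450 enzymes did not all follow them. Of 14 genes for electron partners and haem, 9 were lower and 3 higher in acute (median -1.33), 9 and 4 in fibrosis (-1.26), and 8 were lower in cirrhosis (-0.92). Of all genes tested, 37.9% were called lower and 35.5% higher in acute, 34.9% and 35.3% in fibrosis, and 24.7% and 27.1% in cirrhosis. Counts of gene lists here and below are to be read beside these shares. Por, the P450 reductase, gave -0.72 in acute, -0.73 in fibrosis and -1.35 in cirrhosis, and Alas1, which starts haem synthesis, gave -1.54, -1.45 and -1.68, all called. Both were thus lower in cirrhosis, where 12 of 46 P450 genes were called, against 51.8% of all genes. Without healthy replicates 3 and 5, 28 of 47 were called, against 8504 of all 15193 genes. Hmox1, which degrades haem, was at 0.55 (not called), 1.70 (called) and -0.37 (not called), and Pgrmc1, a haem-binding partner, at 0.90 and 1.28 (called) and 0.28 (not called).

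Of 19 regulators of P450 genes, 16 were lower and 1 higher in acute (median -3.30), 14 and 1 in fibrosis (-1.98), 7 and 1 in cirrhosis (-1.10), and 5 and 1 in the TAA comparison (-0.14). In the TAA comparison 14.9% of all genes were called lower and 12.7% higher. Named by their read level, with no ranking of levels between genes, were Cebpb, a C/EBP factor (-1.11, -0.91 and -1.10, all called), Rxra (-2.71, -2.87 and -1.45, all called) and Rxrb (-1.22, -1.36 and -1.64, all called), partners of the nuclear receptors, and Ncoa1, a coactivator (0.20, 0.19 and, called, 0.65). Among 11 genes of eicosanoid and epoxide handling, 7 were lower and 2 higher in acute (median -2.89), 8 and 2 in fibrosis (-1.42), 4 and 3 in cirrhosis (-0.37). Ptgs2, the inducible cyclooxygenase, rose (3.15, 3.73 and 2.36) and Ephx1, the microsomal epoxide hydrolase, fell (-2.89, -1.24 and -0.81). Of 10 conjugating enzymes found, 4 rose and 4 fell both in acute (median -0.41) and in fibrosis (0.21), and 1 rose and 3 fell in cirrhosis (-0.49). Nqo1, a quinone reductase, gave 3.77, 3.34 and, not called, 0.24.

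Markers of other cell types differed between the groups too. Of 9 Kupffer cell markers tested, 8 were lower in acute and 9 in fibrosis, and their sum was 245 to 3595 CPM in healthy, 61.5 to 161 in acute, 30.5 to 206 in fibrosis and 754 to 2907 in cirrhosis, with Timd4 at 0 in acute and fibrosis. Stellate markers summed to 283 to 784 CPM in healthy, 1315 to 2132 in acute, 1300 to 1745 in fibrosis and 616 to 1906 in cirrhosis. Reln carried most of the acute sum (means of 167 CPM in healthy and 1678 in acute), while 5 of 8 tested stellate markers, Col3a1 (-5.54) and Lrat (-2.55) among them, were lower in acute and Reln alone was higher. In fibrosis 3 of 8 were higher and 3 lower, and in cirrhosis 7 of 9 were higher. Periportal hepatocyte markers fell in 9 of 9 genes in acute and fibrosis and 4 of 9 in cirrhosis, and pericentral ones in 7 of 7, 5 of 7 and 2 of 7, with 2 of 7 higher in cirrhosis. Their part in the P450 values was not tested.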

How the data were processed

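Poly(A) RNA of rat LSECs was sequenced in 32 libraries with a strand-specific kit. Per the labels and the methods of the study, the authors used STAR for mapping (build Rnor_6.0) and RSEM for quantification, and FastQC and Trim Galore are named too, with no versions given. The authors deposited expected counts (RSEM estimates that need not be whole) for 32623 genes in each library, not normalized and not pooled. Values that were not whole made up 10.3% to 12.4% per library. RSEM divides reads that fit several genes, which makes near-identical P450 genes uncertain.

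Expected counts were rounded to whole numbers. limma-voom with TMM factors was fitted to the libraries of the 2 groups compared, after filterByExpr, in R 4.3.3 with limma 3.58.1 and edgeR 4.0.16. A gene was called at a Benjamini-Hochberg adjusted p under 0.05 over all genes tested and a fold-change above 1.5. Tools and fold-change follow the methods of the study, which use an unadjusted p. CPM use TMM factors, found separately for the 22 libraries of the CCl4 model and the 10 of the TAA experiment, so levels are not compared between the experiments. Errors of log2 fold-changes are SE. The study describes its replicates as separate isolations of LSECs, the labels do not name the animal of a library, and p-values measure the spread between these libraries. Simulated acute and healthy counts of 14411 genes had 200 changed, with the same relative spread set for every gene. limma-voom recovered 69% of genes changed by log2 1 and 100% of those changed by log2 2, with 6.11% of calls false. In the real comparison 73.4% of genes were called and the spread differed between genes, so these rates do not carry over to it.

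Named are members with a mean of at least 2 CPM in a group, the 5 called members with the largest change in each comparison, 7 members of known role, and at most 4 members of other lists by level. Cyp2r1 and the genes that lost a call were named besides. Members and lists were chosen with earlier results of these data known. Alternatives were edgeR's quasi-likelihood test, DESeq2 1.42.0, other scalings, filters and call rules, 1 fit over the 4 CCl4 groups, a replicate block and leaving out each library. Leaving out healthy replicates 3 and 5, and counting TAA control replicates 14 and 15 as 1 library, were chosen after seeing the data. Replicate numbers shared by healthy, acute and cirrhosis libraries were not taken as pairs (correlations of -0.272 to 0.305 in healthy and cirrhosis). Differently numbered libraries were not correlated beside them, so pairing is not excluded. Promoter windows are from RefSeq (GRCr8), another build than that of the counts. Gene coordinates in Rnor_6.0 were not used here. Python 3.11.15 with matplotlib 3.10.9 drew the figures.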

Additional observations from a re-analysis of the deposited data

Results flagged for a closer look

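In 9 of 175 member and group combinations of 5 or 6 libraries, 1 library at the low or high end was separated from its group by Dixon's test, which chance alone gives in about 1 of 20 groups (8.8 of these 175). In healthy LSECs, Cyp2d4 was apart at 33.5 CPM in replicate 6 and Cyp2j4 at 5.05 CPM in replicate 1, both low. Cyp2j4 was apart in fibrosis, with 3.56 CPM in replicate 16, above the others. In cirrhosis, replicate 6 was low for Cyp2c13 (27.6 CPM) and Cyp2c6v1 (33.6 CPM), and replicate 1 was low for Cyp4f17 (10.3 CPM). Control replicate 3 of the TAA experiment was low for Cyp3a18 (2.07 CPM) and Cyp3a2 (0.363 CPM) and high for Cyp4f5 (16.8 CPM).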

How the results depend on the processing

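Cyp4b1, Cyp4f5 and Cyp7b1 kept their calls and directions against healthy in acute and fibrosis under every alternative run. Over 44 members and 286 comparisons, 5631 of 5907 values under alternatives kept direction and side of the threshold, 135 lost the call, 139 gained one and 2 reversed. The number called in cirrhosis against healthy (12) was 18 with edgeR, 19 with DESeq2 and 19 without healthy replicate 5. Without healthy replicates 3 and 5 it was 28 of 47, against 8504 of all 15193 genes. There Cyp2a1 (-0.93) and Cyp2c22 (-0.74) reversed and were called lower. A filter at 30 counts gave 8. The number called in fibrosis against acute (24) was 6 in 1 fit over the 4 CCl4 groups. Leaving out a member's lowest healthy libraries lowers its difference from healthy by itself, and the cause of these shifts was otherwise not tested. Leaving out each library in turn gave 36 to 39 calls in acute, 20 to 29 in fibrosis and 10 to 19 in cirrhosis against healthy. It gave 18 to 25 in fibrosis against acute, 27 to 36 in cirrhosis against fibrosis, 40 to 44 in cirrhosis against acute and 12 to 21 in the TAA experiment (21 without control replicate 3).

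With the replicate number as a block, 36 members were called in acute (3 higher, 33 lower) and 14 in cirrhosis (3 higher, 11 lower) against healthy, and 42 in cirrhosis against acute. Same-numbered libraries correlated at 0.035 to 0.211 for acute and healthy, -0.272 to 0.305 for cirrhosis and healthy and -0.098 to 0.107 for cirrhosis and acute. The numbers were not taken as pairs, but without differently numbered libraries beside them these values cannot exclude pairing.

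TAA control replicates 14 and 15 differed less than other libraries of a group (chi-square per degree of freedom of 2.96 against at least 23.6) but by more than sampling noise. Counted as 1 library, they gave 14 members called, 4 higher and 10 lower, in place of 5 higher and 9 lower, and 2 calls (Cyp2s1 and a Cyp4a2 entry) were lost.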

Other observations

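The 9 lymphocyte markers (Cd79a, Cd3e and others) summed to 17.8 to 258 CPM in healthy, 0.207 to 1.82 in acute, 1.46 to 15.8 in fibrosis and 14.7 to 31.1 in cirrhosis. The 6 cholangiocyte markers summed to 1.97 to 27 CPM in healthy and 35.9 to 106 in acute. Spp1 carried the acute sum (means of 0.38 CPM in healthy and 79.5 in acute, log2 fold-change 7.67), while Krt19 (-6.91) and Krt7 (-3.75) were called lower in acute and Epcam (-0.32) was not called. The 7 neutrophil markers summed to 4.75 to 47.8 CPM in healthy and 5.56 to 48.2 in acute. Their part in the P450 values was not tested.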
